A study of Mus musculus with 12 samples.

Results

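The 10 genes Nes, Vim, Sox2, Prom1, Fabp7, Msi1, Msi2, Pax6, Tnc and Hopx, which are commonly used to identify neural stem and progenitor cells, were followed by symbol and Ensembl identifier in 12 RNA-seq libraries. All 10 were among the 45792 genes in the files and among the 15706 genes with enough reads to be tested. The libraries came from primary forebrain neural stem cells (NSCs) of C57BL/6J mouse pups aged 1 to 2 days, grown at the second passage in serum-free medium with EGF and FGF, and comprised 4 WT cultures, 4 Ncf1-/- cultures given vehicle (labelled as untreated) and 4 Ncf1-/- cultures given recombinant mouse Igfbp2. Ncf1 encodes a subunit of the Nox2 NADPH oxidase, the knockout is in all cells of the animal, and Igfbp2 is a secreted protein that binds insulin-like growth factors. RNA was taken 48 h after treatment, which began 48 h after plating. The labels give the dose as 100 ng/ml and the methods of the study give a lower one. The comparisons ask how loss of Ncf1 altered the NSC transcriptome and what added Igfbp2 did in the cells that lack it.

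NSCs line the ventricles of the forebrain and carry features of radial glia, the stem cells of the embryonic brain. Their identity is kept by transcription factors such as Sox2 and Pax6, by the RNA-binding Musashi proteins, which restrain the translation of differentiation factors, and by a cytoskeleton built from the intermediate filament proteins nestin and vimentin. None of the 10 genes is confined to stem cells: Fabp7, Vim and Sox2 are also found in astrocytes, Tnc encodes a matrix protein that mesenchymal cells make, and Hopx and Tnc are known together as genes of basal (outer) radial glia.

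The genes are spread over 6 chromosomes of the GRCm38 build in the GENCODE M21 annotation. Nes lies at chr3:87971078-87980451 and Sox2 at chr3:34650405-34652461, both on the plus strand. Fabp7 lies at chr10:57784881-57788450 on the plus strand, Hopx at chr5:77086988-77115121 and Tnc at chr4:63959785-64047015, both on the minus strand. The whole Sox2 gene, 2057 bases, lies within the noncoding gene Sox2ot on the same strand, so that reads at this place can belong to either transcript. Pax6 overlaps the antisense gene Pax6os1 over 1431 of its 28465 bases, and whether the counting used strand is not stated, but Pax6os1 averaged 0.0951 CPM in vehicle-treated Ncf1-/- and 0.111 CPM in WT libraries. CPM here is the count scaled to the size of the library, corrected by TMM factors.

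The 250 bases before the transcription start are shown for 5 genes on which the results turn: Nes and Fabp7, higher in Ncf1-/- NSCs, Sox2 and Hopx, lower in them, and Tnc, higher with Igfbp2. The sequences are those of RefSeq for GRCm38.p6, which held 9 of the 10 genes, and run 5′ to 3′ on the strand of the gene. They lie at chr3:87970843-87971092 for Nes, chr10:57784673-57784922 for Fabp7, chr3:34649745-34649994 for Sox2, chr5:77115124-77115373 for Hopx and chr4:64047016-64047265 for Tnc, and that of Sox2 precedes a RefSeq start upstream of the GENCODE one. Capitals mark matches, on either strand, to 7 motifs searched: CCAAT (bound by NF-Y), TATAAA (the TATA box), GGGCGG (the Sp1 core), TGGGAA (the core of the Notch effector Rbpj), AACAAT (a SOX core), CAGCTG (an E-box) and TGACTCA (the AP-1 site).
Nes: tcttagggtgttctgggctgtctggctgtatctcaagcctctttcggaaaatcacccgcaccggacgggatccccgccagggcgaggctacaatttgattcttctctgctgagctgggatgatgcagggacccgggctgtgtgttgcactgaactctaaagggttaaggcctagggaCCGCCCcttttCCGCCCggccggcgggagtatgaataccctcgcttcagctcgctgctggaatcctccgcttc
Fabp7: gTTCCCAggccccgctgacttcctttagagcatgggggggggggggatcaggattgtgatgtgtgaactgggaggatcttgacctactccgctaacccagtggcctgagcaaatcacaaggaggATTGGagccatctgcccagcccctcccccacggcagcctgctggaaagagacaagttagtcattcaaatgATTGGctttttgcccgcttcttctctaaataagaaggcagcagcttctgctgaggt
Sox2: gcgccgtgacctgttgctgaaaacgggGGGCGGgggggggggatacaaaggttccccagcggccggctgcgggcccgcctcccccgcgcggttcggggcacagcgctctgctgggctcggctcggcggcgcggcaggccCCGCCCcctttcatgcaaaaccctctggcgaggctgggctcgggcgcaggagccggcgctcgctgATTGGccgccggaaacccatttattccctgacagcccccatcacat
Hopx: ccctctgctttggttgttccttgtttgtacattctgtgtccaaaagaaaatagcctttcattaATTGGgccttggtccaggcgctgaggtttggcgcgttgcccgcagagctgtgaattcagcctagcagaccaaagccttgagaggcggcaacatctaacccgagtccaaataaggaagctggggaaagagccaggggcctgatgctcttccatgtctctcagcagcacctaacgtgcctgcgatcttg
Tnc: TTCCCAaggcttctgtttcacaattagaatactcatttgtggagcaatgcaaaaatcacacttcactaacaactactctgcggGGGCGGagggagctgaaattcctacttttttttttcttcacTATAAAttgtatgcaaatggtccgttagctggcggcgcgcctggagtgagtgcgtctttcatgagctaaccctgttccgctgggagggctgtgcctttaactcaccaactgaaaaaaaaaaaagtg
Matches to CCAAT stood in 7 of the 9 windows, among them those of Fabp7, Sox2 and Hopx, against 33.8% of all 32851 windows of this length. Nes had 2 matches to GGGCGG, 73 and 62 bases before the start, and this motif stood in 5 of the 9 windows and in 32.7% of all. Tnc held TATAAA, 126 bases before its start, as 12.4% of all windows did, besides matches to the Sp1 and Rbpj cores. The Rbpj core stood in 3 of the 9 windows and in 21.6% of all, and the AP-1 site in 1 of 9, Prom1, and in 4.46%. The SOX core and the E-box stood in 0 of the 9 and in 9.42% and 13% of all windows. No motif of the list overlapped another in these windows. The GC content ran from 44.8% in Tnc to 75.6% in Msi2, with a median of 52.4% over all windows.

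Some libraries differed from others of their group in ways that touch the results. Total estimated counts were between 18201622 and 23853851 in 11 libraries and 34086554 in WT replicate 11. In this deepest library the summed level of 6 oligodendrocyte markers (Mbp, Mog, Mag, Mobp, Cnp and Cldn11) was 1141 CPM, against 6745, 6930 and 3867 CPM in WT replicates 9, 10 and 12. The same sum was 183 to 229.5 CPM in vehicle-treated and 198 to 259 CPM in Igfbp2-treated Ncf1-/- libraries. A sample sheet with the code of the study lists the number of WT replicate 12 under an apocynin name, while its label gives WT untreated. Y-linked genes summed to 105 to 116 CPM with vehicle, where the libraries also held Xist at 72.3 to 87.8 CPM, and to 7.79 to 9.18 CPM in the Igfbp2-treated libraries, with Xist at 166 to 275 CPM. WT replicates 9 to 11 had 107 to 118 CPM of Y-linked RNA and 3.87 to 5.22 CPM of Xist, and WT replicate 12 had 6.46 and 291 CPM. The methods state that vehicle and Igfbp2 were given to paired cultures of each animal, which these levels go against. In the comparison of the treatments Igfbp2 and the sex of the cells therefore cannot be told apart. The vehicle and WT libraries differed in Xist as well, so that sex was not balanced between the genotypes either. Its part in that comparison was not tested. Ncf1 itself had 2 to 7 counts in WT and 1 to 4 counts in Ncf1-/- libraries, too few to check the genotype.

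Per transcript length, the 10 genes covered a wide range of levels. TPM (RSEM's abundance, scaled for length and to a fixed sum per library) placed Fabp7, a fatty acid binding protein of radial glia, and Vim as the highest of the 10 in every library. In vehicle-treated Ncf1-/- NSCs, Fabp7 stood at 3179 ± 293 TPM (SD, n = 4) and Vim at 2177 ± 215 TPM, and in WT at 1603 ± 827 and 1105 ± 1220 TPM, where the order of both changed between libraries. Sox2 had rank 3 in all WT libraries, at 148 ± 16.5 TPM, whereas Nes had that rank in all 8 Ncf1-/- libraries, at 105 ± 24.4 TPM with vehicle and 98.7 ± 37.4 TPM with Igfbp2. In WT, Nes ranked between 6 and 8 of the 10, at 27.9 ± 23.9 TPM, and changed order with Tnc and Hopx between libraries. It was above Pax6 in all 4 WT libraries, in WT replicate 12 by 15.7 against 15.4 TPM. Prom1, which encodes the membrane glycoprotein CD133, was the lowest of the 10 in all 12 libraries. It stood at 7.18 ± 2.60 TPM in WT, 3.12 ± 0.31 TPM with vehicle and 2.21 ± 0.50 TPM with Igfbp2.

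**Figure D1:**
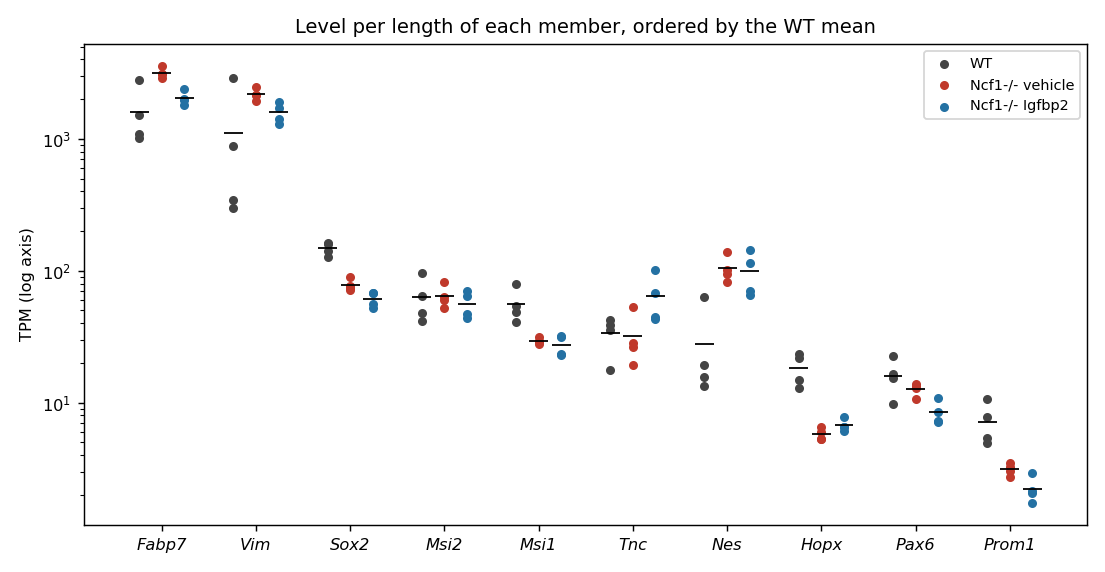
TPM of each gene (log axis) in the 12 libraries, with points for libraries, bars for the mean of 4, and genes ordered by the WT mean. Nes moves from 27.9 TPM in WT, among the lower genes, to rank 3 at 105 TPM in vehicle-treated Ncf1-/- NSCs, and Prom1 is lowest in every group.

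Between vehicle-treated Ncf1-/- and WT NSCs the 10 genes did not move as a block. The filament gene Nes and the lipid-binding gene Fabp7 were higher in Ncf1-/- NSCs, whereas the transcription factor genes Sox2 and Pax6, the homeodomain gene Hopx, Msi1 and Prom1 were lower. Thus 7 of 10 were called (adjusted p under 0.05, edgeR quasi-likelihood test), 2 higher and 5 lower, and the same number had groups that did not overlap. Of all genes tested 57.2% were called, 28.9% higher and 28.2% lower, and in 51.2% the groups did not overlap, so that most genes of any kind were called as well. Their median log2 fold change was −0.31, against 0.02 over all genes.

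**Figure D2:**
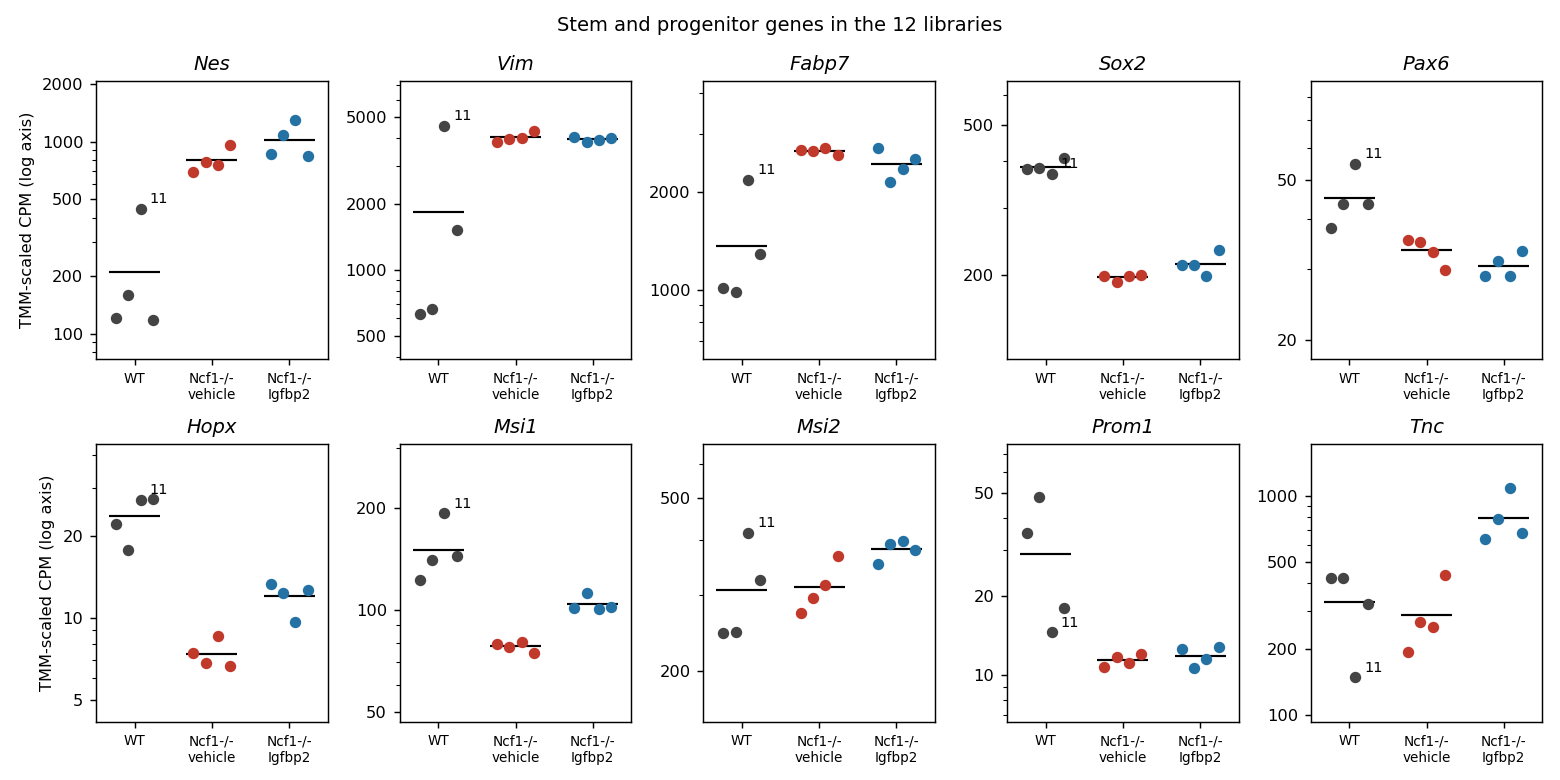
TMM-scaled CPM (log axis) of each gene in the 12 libraries, with points for libraries, bars for the mean of 4 and WT replicate 11 numbered. Sox2 separates WT (371 to 408 CPM) from all Ncf1-/- libraries (191 to 233 CPM), and WT replicate 11 exceeds the Ncf1-/- libraries in Vim, at 4569 CPM.

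Nes encodes nestin, the filament protein that gives the usual stain for NSCs. It stood at 120, 158, 447 and 118 CPM in WT replicates 9 to 12, and at 696, 787, 753 and 960 CPM in Ncf1-/- libraries with vehicle. Every Ncf1-/- library was above every WT library, and WT replicate 11 was nearest to them. The log2 fold change was 1.92 (SE 0.37, adjusted p = 0.000628, edgeR), and it was 2.60 without WT replicate 11. Vim, which encodes the filament partner of nestin, was more uneven, at 626, 664, 4569 and 1528 CPM in WT and 3848, 3977, 4023 and 4311 CPM with vehicle. WT replicate 11 lay above all Ncf1-/- libraries and the other 3 below. The log2 fold change of Vim was 1.13 (95% interval 0.07 to 2.18, adjusted p = 0.0636, edgeR), which was not called, and was 2.11 (adjusted p = 1.51e-05) without that library. Over 22 alternatives its adjusted p ran from 6.91e-10 to 0.412. Fabp7 ranged from 988 to 2178 CPM in WT, highest in replicate 11, and from 2600 to 2729 CPM with vehicle. Its log2 fold change was 0.96 (SE 0.21, adjusted p = 0.00177, edgeR).

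Among the transcription factors, Sox2, which holds NSCs in the undifferentiated state, showed the tightest groups. It stood at 382, 383, 371 and 408 CPM in WT and at 199, 191, 198 and 200 CPM with vehicle. The level in the Ncf1-/- libraries was thus close to a factor of 1.96 lower in each, with a log2 fold change of −0.97 (SE 0.07, adjusted p = 3.39e-07, edgeR), and WT replicate 11 did not stand apart. Sox2ot, which contains Sox2, also fell, by 0.56 on the log2 scale (adjusted p = 0.014, edgeR). Its groups overlapped, at 41.5 to 76.1 CPM in WT and 37.4 to 43.5 CPM with vehicle. Pax6, a patterning factor of the dorsal forebrain, stood at 37.9, 43.6, 54.8 and 43.5 CPM in WT and at 35.4, 35.1, 33.2 and 30.0 CPM with vehicle. The groups did not overlap but lay close, and the log2 fold change was −0.43 (SE 0.11, adjusted p = 0.00365, edgeR). On library totals without TMM it was −0.26 (adjusted p = 0.075) and on log2(TPM + 1) it was −0.27 (adjusted p = 0.309, limma), and over 22 alternatives its adjusted p ran from 0.00034 to 0.727, so that this call depended on the scaling. Hopx, a homeodomain protein without DNA-binding activity that marks quiescent stem cells and basal radial glia, stood at 22.3, 17.8, 27.3 and 27.4 CPM in WT and at 7.41, 6.82, 8.61 and 6.64 CPM with vehicle. Every vehicle library was under every WT library, and the log2 fold change was −1.69 (SE 0.15, adjusted p = 1.42e-06, edgeR).

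The RNA-binding proteins Msi1 and Msi2 are close relatives, and Msi1 was called while Msi2 was not. It stood at 123, 140, 193 and 144 CPM in WT and at 79.6, 77.8, 80.2 and 74.9 CPM with vehicle. These ranges did not overlap, and the log2 fold change was −0.94 (SE 0.12, adjusted p = 1.64e-05, edgeR). Msi2 stood at 245, 246, 417 and 324 CPM in WT and at 272, 294, 316 and 368 CPM with vehicle, with a log2 fold change of 0.02 (95% interval −0.32 to 0.36, adjusted p = 0.913). Without WT replicates 11 and 12, a choice made after the data were seen, Msi2 was called higher (0.30, adjusted p = 0.0314, edgeR), the lowest adjusted p of 22 alternatives. The difference between Msi1 and Msi2 was not itself tested.

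At the cell surface and in the matrix, Prom1 was lower and Tnc did not pass the test. Prom1 stood at 35.1, 48.1, 14.6 and 18.04 CPM in WT and at 10.8, 11.7, 11.1 and 12.1 CPM with vehicle. WT replicates 9 and 10 were high, 11 and 12 were nearer to the Ncf1-/- libraries but above them, and the log2 fold change was −1.34 (SE 0.29, adjusted p = 0.00158, edgeR). Without WT replicates 11 and 12 it was −1.91. Tnc, which encodes tenascin C, a glycoprotein of the stem cell niche, stood at 423, 421, 149 and 323 CPM in WT and at 194, 266, 253 and 435 CPM with vehicle. The groups overlapped over most of their range, and the log2 fold change was −0.20 (95% interval −0.87 to 0.48, adjusted p = 0.613, edgeR).

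Within the WT group, Prom1 was lower in the libraries with fewer oligodendrocyte transcripts, and Vim was higher in replicates 11 and 12 than in 9 and 10. Both genes were named after their values were seen. In the order of the summed oligodendrocyte markers (replicates 11, 12, 9 and 10), Vim was 4569, 1528, 626 and 664 CPM and Prom1 was 14.6, 18.04, 35.1 and 48.1 CPM. WT replicate 11 was at the end of the Vim and Prom1 series. Nes, at 447, 118, 120 and 158 CPM, did not follow this order. WT replicate 11 exceeded the mean of the other 3 WT libraries 4.87 times for Vim, 3.38 times for Nes and 1.98 times for Fabp7, and reached 0.384 times that mean for Tnc and 0.948 times for Sox2. All 6 oligodendrocyte markers were called lower with vehicle than in WT, with groups of summed levels that did not overlap (exact permutation p = 0.0286, two-sided, the smallest that 4 against 4 allows). Astrocyte markers (Gfap, Aqp4, Aldh1l1, S100b and Slc1a2) summed to 5373 to 10450 CPM in WT and 1969 to 2416 CPM with vehicle, with 4 of 5 called lower. Of 7 neuronal markers 5 were called lower, with sums of 597 to 770 CPM in WT and 483 to 547 CPM with vehicle. All 5 markers of oligodendrocyte precursors were called, in both directions, with Olig1 and Olig2 higher (log2 fold changes 0.87 and 0.29) and Sox10, Pdgfra and Cspg4 lower (−3.39, −2.01 and −0.93). Of 5 tested mesenchymal markers 4 were called higher than in WT, among them Col3a1 (4.28) and Acta2 (2.55), and Pdgfrb was lower (−5.36), with sums of 10.8 to 14.03 CPM with vehicle and 9.87 to 24.2 CPM in WT. These genes are named after their values were seen. The 6 microglia markers summed to no more than 1.45 CPM in any library. In bulk RNA fewer cells of a type and less RNA per cell cannot be told apart, and the part of these other cells in the differences of the 10 genes was not tested.

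**Figure D3:**
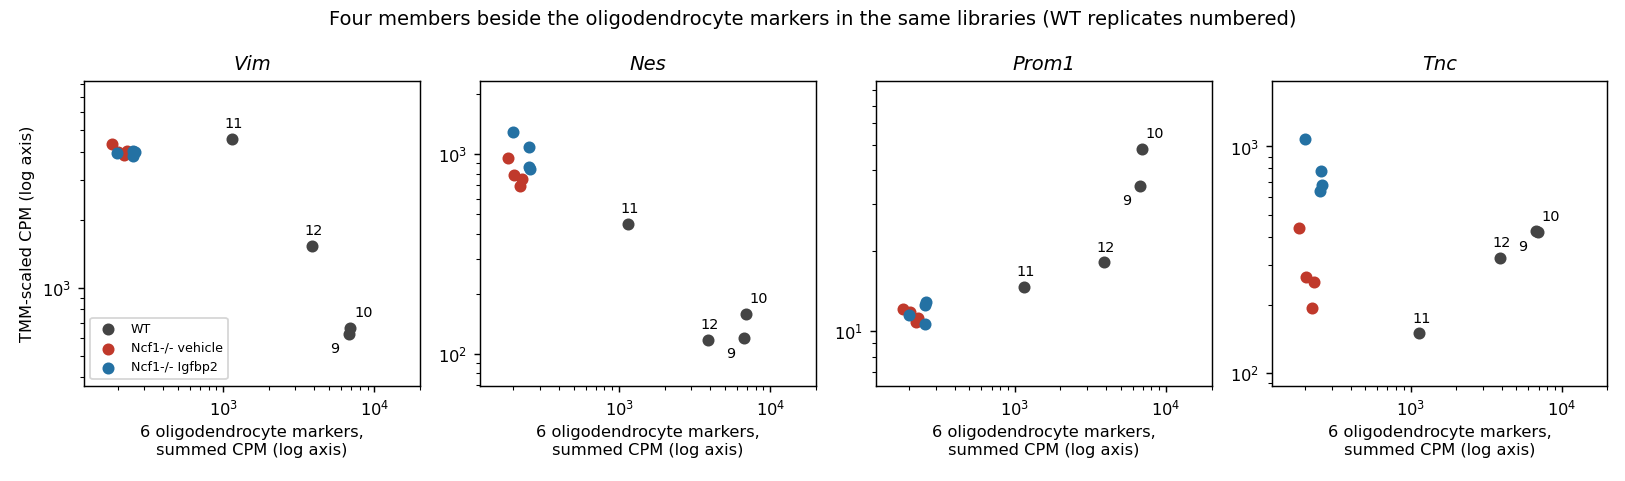
TMM-scaled CPM of Vim, Nes, Prom1 and Tnc (log axis) against the summed CPM of 6 oligodendrocyte markers (log axis) in the 12 libraries, with WT replicates numbered. The WT libraries spread from 1141 to 6930 CPM of the markers while the Ncf1-/- libraries sit between 183 and 259 CPM. Along the WT libraries Prom1 rises, and Vim falls from replicate 11 to replicate 9.

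Between Igfbp2 and vehicle 3 of the 10 genes were called. Tnc, Hopx and Msi1 were higher with Igfbp2 and none was lower, and these 3 also had groups that did not overlap in CPM. The split depended on the scaling, with 2 higher and 1 lower (Pax6) on library totals, and 1 higher (Tnc) and 2 lower (Sox2 and Pax6) with limma on log2(TPM + 1) or log2(TPM + 0.1), where the value of Msi1 was negative. In TPM the groups of Tnc, Hopx and Msi1 all overlapped. Tnc ran from 42.7 to 101.1 TPM with Igfbp2 and from 19.2 to 53.3 TPM with vehicle. Over all genes tested 25% were called, 14.2% higher and 10.7% lower, and 34.1% had groups that did not overlap. The median log2 fold change of the 10 was 0.20, against 0.04 over all genes.

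Tnc stood at 639, 782, 1081 and 678 CPM with Igfbp2, above the 194 to 435 CPM of the vehicle libraries and above the highest WT library, at 423 CPM. The log2 fold change was 1.47 (SE 0.32, adjusted p = 0.00668, edgeR), and it lay between 1.25 and 1.76 with each library left out in turn, called in 12 of 12. Tnc was also higher than in WT, by a log2 fold change of 1.27 (adjusted p = 0.00341, edgeR), with no overlap. Mesenchymal markers moved with it, summing to 23.4 to 26.8 CPM with Igfbp2 and 10.8 to 14.03 CPM with vehicle, and 3 of the 5 tested (Col1a1, Col1a2 and Pdgfrb, chosen after their values were seen) were called higher. These 3 were at 5.29 CPM or less in each of these libraries. Acta2 and Col3a1 were not called. Acta2 was the highest of the list, at 11.3 to 14.5 CPM with Igfbp2 and 5.49 to 6.86 CPM with vehicle. Foxj1, an ependymal marker named after its values were seen, stood at 54.9 to 78 CPM with Igfbp2 and 30.0 to 36.8 CPM with vehicle (adjusted p = 0.0359, edgeR). The other 3 ependymal markers were at 1.22 CPM or less in each of these libraries, Tmem212 at 0, and Rsph1 was not called (adjusted p = 0.159). The part of such cells in the result was not tested.

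Hopx stood at 13.3, 12.4, 9.71 and 12.7 CPM with Igfbp2, between the 6.64 to 8.61 CPM of the vehicle and the 17.8 to 27.4 CPM of the WT libraries, with no overlap on either side. It was higher than with vehicle (log2 fold change 0.71, SE 0.15, adjusted p = 0.00685, edgeR) and lower than in WT (−0.98, adjusted p = 8.99e-05). In TPM, Hopx with Igfbp2 (6.04 to 7.8) overlapped Hopx with vehicle (5.26 to 6.49). On log2(TPM + 1) its difference from vehicle was 0.19 and was not called. Msi1 stood at 102, 112, 101 and 102 CPM with Igfbp2, also between the other groups. Its log2 fold change was 0.42 against vehicle (SE 0.12, adjusted p = 0.021, edgeR) and −0.53 against WT (adjusted p = 0.00144). The call of Msi1 against vehicle was the least secure. It was lost without vehicle replicate 2, vehicle replicate 3 or Igfbp2 replicate 6 (adjusted p = 0.0561, 0.0553 and 0.0746, edgeR, within 0.00126 to 1 over 22 alternatives). With culture pairs as a replicate block the log2 fold change was 0.42 (adjusted p = 0.0577, edgeR). The levels of Y-linked RNA go against these pairs, so that the block says little about this call. In WT replicate 12, which like the Igfbp2 libraries had little Y-linked RNA, Tnc stood at 323 CPM and Msi1 at 144 CPM. Both lay within the range of the other WT libraries. Hopx stood there at 27.4 CPM, just above the 27.3 CPM of the next one. This single WT library is listed elsewhere under an apocynin name, and the part of sex in these differences was not tested.

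The other 7 genes were not called between the treatments with TMM scaling. Nes was 865, 1083, 1294 and 842 CPM with Igfbp2 (log2 fold change 0.35, 95% interval −0.42 to 1.13) and Sox2 was 212, 212, 199 and 233 CPM (0.12, −0.04 to 0.28). Sox2 was lower than in WT (−0.85, adjusted p = 8.71e-07, edgeR). On log2(TPM + 1), Sox2 was called lower with Igfbp2 than with vehicle (−0.36, adjusted p = 0.0421, limma, within 0.0421 to 0.693 over 22 alternatives), and so was Pax6 (−0.55, adjusted p = 0.0436, within 0.0182 to 0.601). Pax6 was also called lower on library totals (−0.40, adjusted p = 0.0182, edgeR). Vim (−0.03, 95% interval −1.07 to 1.01), Prom1 (0.05, −0.59 to 0.69), Fabp7 (−0.13, −0.59 to 0.33), Pax6 (−0.13, −0.36 to 0.10) and Msi2 (0.29, −0.05 to 0.63) had these differences with TMM scaling. The interval of Vim was the widest of the 10, in a model that shares 1 spread over the 3 groups. Compared with WT, the Igfbp2-treated libraries had 8 of 10 genes called, 3 higher (Nes, Fabp7 and Tnc) and 5 lower (Sox2, Prom1, Msi1, Pax6 and Hopx), where 62.4% of all genes were called, 31.6% higher and 30.8% lower. Groups did not overlap for 7 of the 10 and for 54.3% of all genes, and Fabp7 was called with an overlap. This comparison and that of vehicle with WT share the WT libraries.

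**Figure D4:**
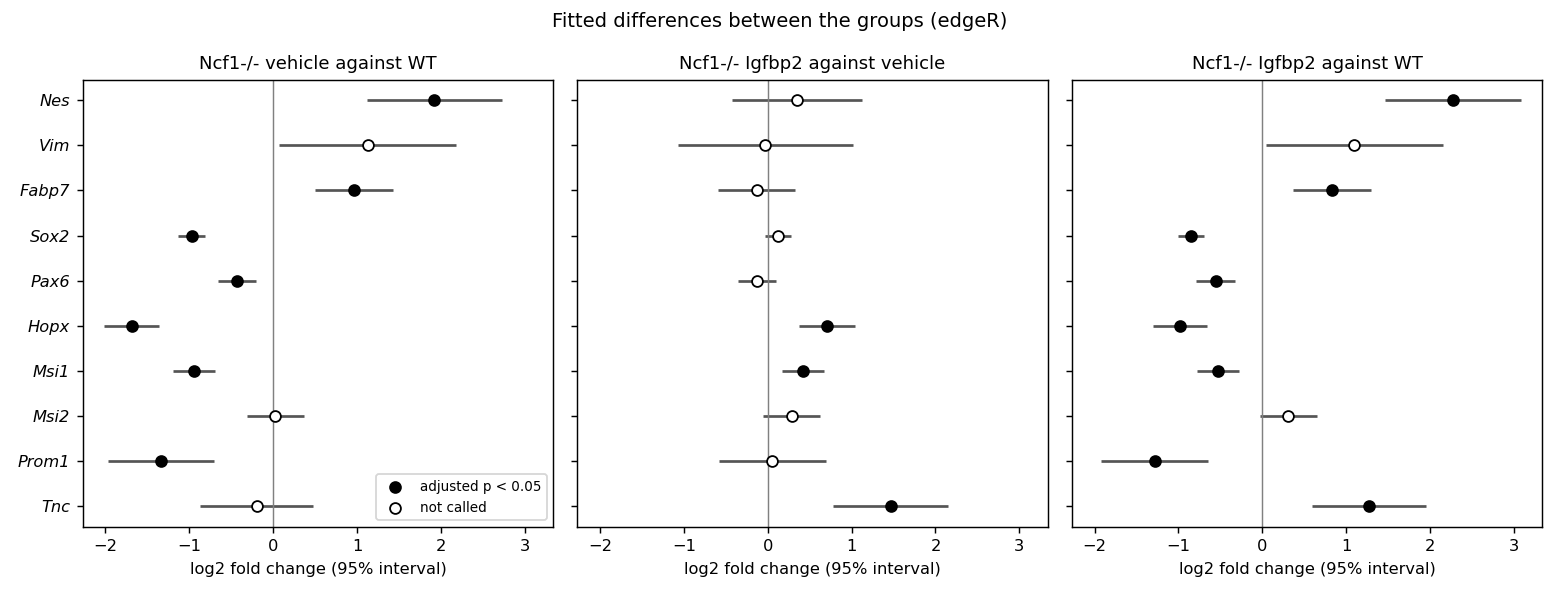
Fitted log2 fold changes (points, filled where called at an adjusted p under 0.05) with 95% intervals for the 10 genes in each of 3 comparisons from 1 edgeR model of 12 libraries. Nes at 1.92 and Hopx at −1.69 mark the ends of the range between vehicle-treated Ncf1-/- and WT, and with Igfbp2 against vehicle Tnc at 1.47 is the farthest from 0.

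The direction of several treatment differences depended on how libraries were scaled. The median gene moved by 0.04 with TMM between Igfbp2 and vehicle, by −0.23 on library totals and by −0.30 on log2(TPM + 1). On log2(TPM + 1) the difference of Msi1 became −0.11 and that of Hopx fell to 0.19 (adjusted p = 0.655 and 0.382, limma), while Tnc stayed at 0.997 and was called. The one-way test on TPM that the methods describe gave Tnc a difference of 1.01 and an adjusted p of 0.322, the highest of its 22 alternatives (lowest 5.03e-05). Relative to the median of all genes, over 6 scalings, Tnc lay 1.29 to 1.44 higher, Hopx 0.49 to 0.67 and Msi1 0.19 to 0.38, and Sox2 (−0.06 to 0.08) and Prom1 (−0.08 to 0.02) lay on either side of it. Taking off this median removes most of the difference between scalings. The closeness of these values is thus no separate test of the genes.

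**Figure D5:**
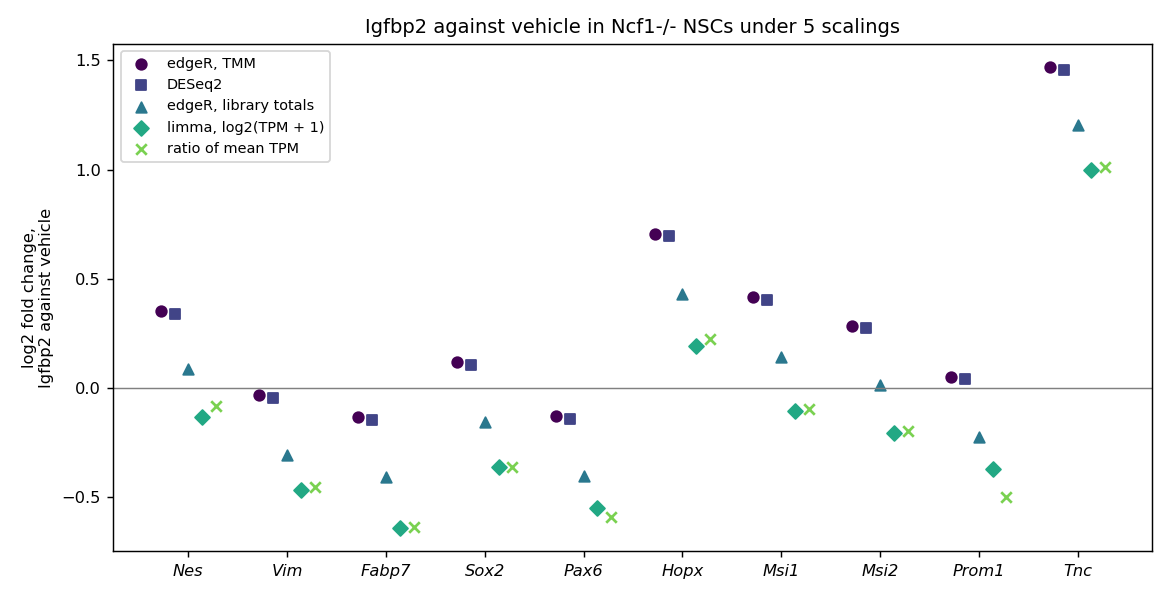
Log2 fold change of Igfbp2 against vehicle for each gene under 5 scalings of the same libraries, shown by marker. The points of each gene step down from TMM to TPM, with Tnc between 1.47 and 0.997 and Msi1 crossing 0, from 0.42 to −0.11.

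RSEM also gives each gene a transcript length weighted by the use of its isoforms, which does not depend on the level. Of the 9 members with more than 1 transcript, 1, 1 and 2 had groups that did not overlap in this length (vehicle against WT, Igfbp2 against vehicle, and Igfbp2 against WT), where 9.73%, 10.1% and 11.9% of such genes did. The Vim transcripts averaged 1560 bases with vehicle and 1480 bases in WT, and those of Msi1 2222 bases with Igfbp2 and 2139 bases in WT. These groups only just missed overlapping. The shortest Vim value with vehicle was 1503.79 bases and the longest in WT 1503.42 bases. For Msi1 the shortest with Igfbp2 was 2166.92 bases and the longest in WT 2165.44 bases. The length of Fabp7, 804 bases, differed by less than 1 base.

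Related genes from lists around these members did not follow 1 direction either. The counts called per list stand beside 57.2% of all genes between vehicle and WT and 25% between Igfbp2 and vehicle. Of 12 other stem cell transcription factors, 4 were called higher and 6 lower between vehicle and WT. Hmga2, a chromatin protein of young stem cells, rose by 2.88 and Hes1, a Notch-responsive repressor, by 2.41 on the log2 scale, while Hes5, its relative, fell by 1.23 and Sox9, a gliogenic factor, by 0.95 (adjusted p = 2.14e-06, 6.62e-05, 0.000128 and 1.11e-05, edgeR). Hes1 was 2.18 to 10.8 CPM in WT and 25.0 to 31.3 CPM with vehicle, and Hes5 was 116 to 187 CPM and 42.6 to 78.8 CPM, with no overlap for either. With Igfbp2 1 of the 12 was called higher (Sox1, 0.72, chosen after its value was seen) and 1 lower, Hes5, at 16.4 to 25.0 CPM (−1.48, adjusted p = 0.000869, edgeR).

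Among 12 other glial genes of radial glia and stem cells, 1 was called higher between the genotypes and 8 lower. Gfap, the astrocyte filament protein that adult stem cells also make, fell by 2.85 and Clu, a secreted chaperone, by 2.50 on the log2 scale (adjusted p = 2.97e-06 and 2.07e-07, edgeR), opposite in sign to Nes. Gfap is also 1 of the astrocyte markers. The gene called higher, Thbs4, averaged 0.621 CPM with vehicle and 0.260 CPM in WT. Of 9 tested transit amplifying and intermediate progenitor genes 5 were higher and 3 lower. Top2a and Mcm2, of the cell cycle, rose by 1.94 and 1.53 on the log2 scale, and Dlx2 and Dlx1, of interneuron progenitors, fell by 2.11 and 1.61 (adjusted p = 6.69e-06, 1.72e-05, 1.35e-05 and 0.000218, edgeR).

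Beside Tnc and Hopx, 6 other genes of basal radial glia were measured, with 0 called higher and 3 lower between the genotypes. Il6st, the signalling receptor of LIF, fell by 1.54 and Itgb5, an integrin, by 0.56 on the log2 scale (adjusted p = 1.56e-07 and 0.000243, edgeR). With Igfbp2 1 of the 6 was called higher than with vehicle, Itgb5, with a log2 fold change of 0.58 (adjusted p = 0.00182). Of 9 tested partners and targets of the members, 2 were higher and 4 lower between the genotypes. Itga8, a tenascin-binding integrin, rose by 1.99 and Cdkn1a, whose transcript Musashi proteins bind, by 1.44, whereas Insc, a spindle adaptor of asymmetric division, fell by 3.81 and Synm, a filament partner of nestin and vimentin, by 1.04 (adjusted p = 1.01e-05, 9.11e-05, 3.47e-05 and 0.000928, edgeR). With Igfbp2 3 were higher and 1 lower. Cdkn1a stood at 276 to 311 CPM against 128 to 149 CPM with vehicle and 35.0 to 82.6 CPM in WT (1.06 against vehicle, adjusted p = 0.00477, edgeR). The 1 lower gene was Sox2ot, at 13.7 to 17.6 CPM against 37.4 to 43.5 CPM with vehicle (−1.37, adjusted p = 0.000765, edgeR), while the Sox2 gene within it was not called.

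For each member the gene with the most similar log2 CPM over the 12 libraries was taken from 11172 genes, as a description. The libraries come from 3 groups, so that differences between groups enter this likeness. The closest genes were Megf11 for Nes (Pearson r 0.996), Grm5 for Vim (0.989), Rnf144a for Sox2 (0.997), Tppp, a protein of myelinating oligodendrocytes, for Prom1 (0.988) and Cpxm2 for Fabp7 (0.988). They were Grina for Msi1 (0.983), Sgpl1 for Msi2 (0.965), Zscan2 for Pax6 (0.975), Olfml2b for Tnc (0.96) and Nkain2 for Hopx (0.984).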

How the data were processed

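The authors mapped rRNA-depleted RNA-seq reads with Bowtie2 and quantified genes with RSEM (versions not given in the sources used here), on GRCm38 per the labels. Deposited per library were RSEM's expected counts per gene, without normalization, TPM, FPKM (deposited, not used) and weighted transcript lengths (another RSEM column). A merged table deposited by the authors holds a score, TPM summed once per transcript, used only to pair symbols with identifiers.

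Members and gene lists were chosen with earlier results of these data known. Expected counts (15.9% not whole) were rounded and fitted with edgeR 4.0.16 in R 4.3.3: TMM, filterByExpr, 1 quasi-likelihood model over 12 libraries with a mean per group, 3 contrasts, two-sided, Benjamini-Hochberg over 15706 genes. Alternatives used DESeq2 1.42.0, limma 3.58.1, other scalings and filters, the test of the study on TPM, and left-out libraries. The median SE of a log2 fold change was 0.14. The script was tested on simulated counts. Named are the 10 members, up to 2 rising and 2 falling called genes per list between the genotypes, the overlapping noncoding genes and the closest gene per member, among genes averaging 5 CPM or more (log2 with a prior count of 2). A culture is 1 pup, per the methods, though the vehicle libraries held both Y-linked RNA and Xist. The closest of 18 replicate pairs differed beyond sampling noise (chi-square per degree of freedom 4.63). The sample sheet of the study pairs vehicle with Igfbp2 cultures, but deviations of the 4 pairs correlated at −0.0673 to 0.0328 (other combinations −0.248 to 0.257). One gene of the oligodendrocyte marker list is not reported here and is left out of its sums and counts.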

Additional observations from a re-analysis of the deposited data

Results flagged for a closer look

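Of 30 groups of 4 libraries (10 genes in 3 groups), 2 held a library far from the other 3 by Dixon's criterion, and chance alone flags about 1 in 20 groups. Nes in WT replicate 11 stood at 447 CPM, against 118 to 158 CPM in the other WT libraries. This library also had the highest Vim, Fabp7, Msi1, Msi2 and Pax6 of the WT group. Msi1 in Igfbp2-treated Ncf1-/- replicate 6 stood at 112 CPM, against 101 to 102 CPM in the other 3.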

How the results depend on the processing

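With a log2 fold change of 1 or more required as well, 3, 1 and 3 of the 10 genes were called for vehicle against WT, Igfbp2 against vehicle and Igfbp2 against WT, and the study's own test on TPM called 3 (Sox2, Fabp7 and Hopx), 0 and 4; at 0.0661 to 0.0691 Nes, Prom1 and Msi1 just missed it. With each library left out the counts ran from 7 to 8, 2 to 3 and 8 to 10. Without WT replicates 11 and 12, chosen after seeing the data, they were 9, 4 and 10. Over all genes 9615, 6028 and 10522 were then called. Across all genes, the study's own test called 4329, 2149 and 5592, against 8978, 3923 and 9801 with edgeR, and requiring a log2 fold change of 1 or more left 3246, 914 and 3848. Calls over all genes between Igfbp2 and vehicle were 5906 on library totals, 6354 and 6519 with limma on log2(TPM + 1) and log2(TPM + 0.1), and 2320, 2294 and 2550 without vehicle replicate 1, vehicle replicate 2 or Igfbp2 replicate 6. In vehicle against WT, Tnc turned to 0.00046 on library totals, and Msi2 ran from −0.10 to 0.21 as single libraries were left out. In Igfbp2 against vehicle, library totals turned Sox2 to −0.15 and Prom1 to −0.22, a mean of at least 5 CPM turned Prom1 to −0.0072, and left-out libraries took Prom1 from −0.016 to 0.098 and Vim from −0.074 to 0.020. On TPM, Nes, Sox2, Prom1, Msi1 and Msi2 turned to −0.13, −0.36, −0.37, −0.11 and −0.20 (log2(TPM + 1)), −0.13, −0.36, −0.50, −0.11 and −0.21 (log2(TPM + 0.1)) and −0.083, −0.36, −0.50, −0.094 and −0.20 (the study's own test). Sox2 and Pax6 were called lower with limma on both TPM scales, and Pax6 on library totals. Msi2 against WT turned with them, from 0.31 to −0.11, −0.11 and −0.16. The median gene fell under these scalings too. The pair as a replicate block lost the call of Msi1 between the treatments (0.42) and no other call of the 10. It left 2757 calls over all genes between the treatments. Of 660 alternative values, 593 kept direction and side of the threshold. Member counts per library ran from 141 (Hopx) to 159308 (Vim).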
